A study of Mus musculus with 4 samples.

Results

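The Ms4a genes encode small proteins that cross the membrane 4 times, and in the mouse they lie side by side on chromosome 19. The 5 described here were chosen by gene symbol: Ms4a1, Ms4a3, Ms4a4b, Ms4a6b and Ms4a6c. In the array annotation they had 9 single-gene probe sets, of 45037 probe sets and 18193 named genes in all. The set was proposed with the differences between genotypes and between cell populations on these same arrays in view, so its values are given as a description and no test was made on them.

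Many Ms4a proteins sit beside other receptors in the membrane of blood cells, and single genes of the family mark single lineages. Ms4a1 encodes CD20, a surface protein of B cells. Ms4a3, also called HTm4, is a gene of granulocyte and monocyte progenitors whose product acts on the cell cycle. Ms4a4b is best known from T cells, where its product restrains proliferation, and Ms4a6b and Ms4a6c are known from T cells and from cells of the monocyte lineage.

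RNA was measured on 4 Affymetrix mouse arrays, 1 for each group. LSK cells (Lin-ckit+Sca1+, the bone marrow fraction that holds the stem cells and multipotent progenitors) and MP cells (Lin-ckit+Sca1-, the myeloid progenitors) were sorted from 1 pool of marrow per genotype, each from 4 mice, males and females mixed. Wild-type (WT) mice were Smo flox/flox, Mx1Cre- and Smo-deficient mice were Smo flox/flox, Mx1Cre+. Smo encodes Smoothened, the transducer of hedgehog signals, and the Mx1 promoter that drives Cre answers to interferon, so deletion is not limited to blood cells. The WT mice carried the floxed alleles too, and every mouse of both genotypes was given polyI:C, which induces interferon, in 3 injections of 20 ug/g, and was examined 6 weeks later. The strain label reads C57BL/6x129 for WT LSK, C57BL/6x130 for Smo-deficient LSK, C57BL/6x131 for WT MP and C57BL/6x132 for Smo-deficient MP, and the ages of the mice are not given in the sources used here. None of the groups has a replicate, and with 4 arrays the precision is limited.

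The labels were checked first on Smo itself. Its probe set with the highest mean, 1427048_at, had a log2 intensity of 10.02 in LSK and 9.72 in MP of WT mice, and 6.96 in LSK and 7.94 in MP of Smo-deficient mice. The Smo-deficient arrays were thus the low ones in both populations. Kit, a receptor by which both populations were sorted, lay between 12.31 and 12.65 on all 4 arrays. Hybridisation spikes were lower on the Smo-deficient than on the WT array in MP, with a mean of -0.37 ± 0.08 on the log2 scale (SD, 14 spike probe sets), against 0.12 ± 0.07 in LSK. Poly-A spikes were lower on the Smo-deficient array in both populations, with means of -0.16 ± 0.13 in LSK and -0.25 ± 0.15 in MP (SD, 27 probe sets). The 3' minus 5' difference of Actb, a sign of RNA integrity, was 1.55 in LSK and 1.34 in MP of WT mice, and 1.53 in LSK and 1.31 in MP of Smo-deficient mice, on the log2 scale, so it was higher in LSK in both pools. In LSK minus MP the hybridisation spikes had means of 0.05 ± 0.07 for WT cells and 0.54 ± 0.06 for Smo-deficient cells (SD, 14 probe sets), and the poly-A spikes of 0.37 ± 0.26 and 0.46 ± 0.29 (SD, 27 probe sets). The part of these technical differences in the results below was not tested.

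Ms4a4b, Ms4a6c and Ms4a6b lie close together on the chromosome and are related copies, and 4 of the 5 members (all but Ms4a1) matched an entry of the RefSeq promoter table. The 250 bases before the start are shown for Ms4a6b and Ms4a6c because these neighbours share most of their sequence, and for Ms4a4b beside Ms4a4c, a family gene that is no member, for the same reason. Build GRCm38.p6 places the windows on the plus strand, with Ms4a6b at chr19:11518309-11518558, Ms4a6c at chr19:11469118-11469367, Ms4a4b at chr19:11443308-11443557 and Ms4a4c at chr19:11407411-11407660. Capitals mark the longest stretch that a pair has letter for letter in common.
Ms4a6b: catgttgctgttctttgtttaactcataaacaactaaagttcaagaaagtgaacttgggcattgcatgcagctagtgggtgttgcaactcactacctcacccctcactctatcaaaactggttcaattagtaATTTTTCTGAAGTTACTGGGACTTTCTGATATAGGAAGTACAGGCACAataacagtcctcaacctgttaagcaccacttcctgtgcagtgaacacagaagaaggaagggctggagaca
Ms4a6c: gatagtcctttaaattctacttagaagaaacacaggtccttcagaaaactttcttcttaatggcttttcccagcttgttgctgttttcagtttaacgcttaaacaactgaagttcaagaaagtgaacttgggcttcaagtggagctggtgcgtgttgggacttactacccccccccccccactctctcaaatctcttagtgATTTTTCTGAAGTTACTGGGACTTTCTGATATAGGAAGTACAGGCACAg
Ms4a4b: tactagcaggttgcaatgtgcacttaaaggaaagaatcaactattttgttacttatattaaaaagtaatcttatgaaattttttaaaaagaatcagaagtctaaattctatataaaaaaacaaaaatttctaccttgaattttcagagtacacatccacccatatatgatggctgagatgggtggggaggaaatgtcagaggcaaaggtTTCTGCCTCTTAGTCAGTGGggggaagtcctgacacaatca
Ms4a4c: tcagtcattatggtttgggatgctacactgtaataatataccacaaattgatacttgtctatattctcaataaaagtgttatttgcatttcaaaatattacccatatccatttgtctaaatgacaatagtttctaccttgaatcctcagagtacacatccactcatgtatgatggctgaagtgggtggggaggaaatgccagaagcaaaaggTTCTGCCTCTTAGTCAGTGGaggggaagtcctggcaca

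The windows of Ms4a6b and Ms4a6c shared an unbroken run of 48 bases, which began 118 bases before the start of Ms4a6b and 49 bases before that of Ms4a6c. In a global alignment, 85.1% of the 175 bases that were aligned without a gap were identical. For Ms4a4b and Ms4a4c the longest shared run was 20 bases, and 80.1% of 231 aligned bases were identical. Between Ms4a4b and Ms4a6b the run was 7 bases and the identity 61.7%, near the 59.2% of the less related Ms4a3 and Ms4a4b. Promoter letters thus fell into a 6b and 6c pair and a 4b and 4c pair.

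These windows were searched on both strands for 5 short motifs. The letters GAAANNGAA, part of the sites of interferon regulatory factors, were found once in Ms4a6b, 206 bases before the start, and once in Ms4a6c, 133 bases before it, both as GAAAGTGAA, and 7.13% of 32851 promoter windows of the same length hold a match. The letters GAGGAA, a core of PU.1 sites, were found once in Ms4a4b and once in Ms4a4c, at 64 and 61 bases before the start, and 23.3% of all windows hold them. TGTGGT, a RUNX core, was found in Ms4a4c alone of the 5 windows searched, which included Ms4a3 (14.05% of all windows). TTGCNNAA for C/EBP factors (9.56% of all windows) and CCCNNGGG for EBF factors (11.8%) were found in none of these 5 windows. The motifs do not share letters with each other in these matches, and a match is a description of letters, not a site.

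The 9 member probe sets had log2 intensities from 4.49 to 12.54. Each gene was represented by its probe set with the highest mean, and a log2 intensity of 7.23, the median over all probe sets, served as the filter on dim ones. All 5 representing probe sets lay above it by their mean over the 4 arrays, and of the 4 other probe sets 1 did. Probe sets differ in how brightly they bind, so no gene's level was set against that of another gene.

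**Figure D1:**
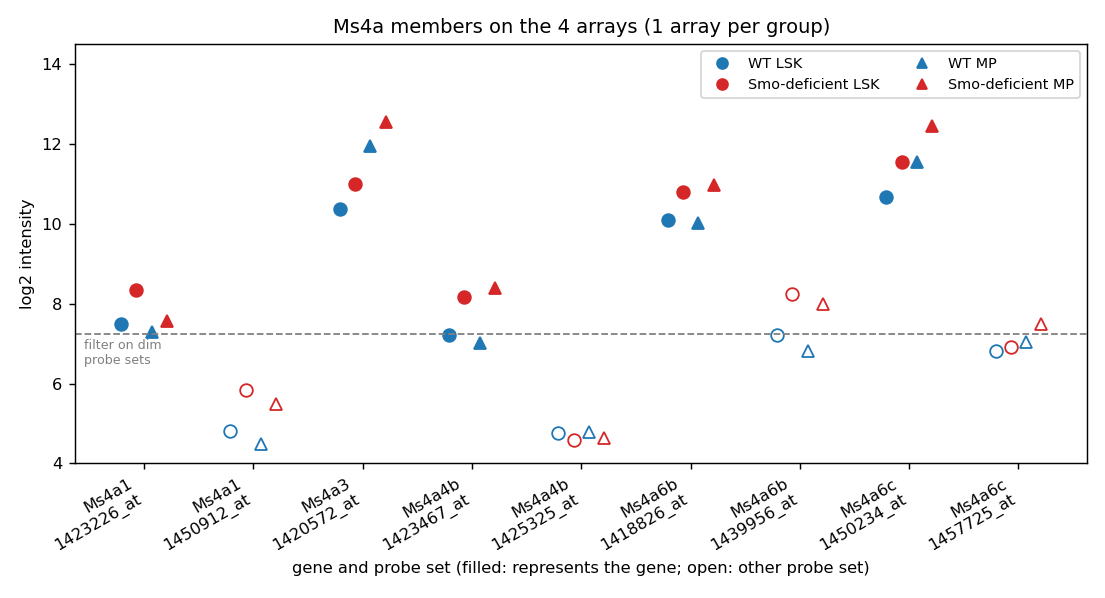
Log2 intensity (vertical axis) of the 9 probe sets of the 5 Ms4a members on each of the 4 arrays, with circles for LSK, triangles for MP, blue for WT and red for Smo-deficient; filled symbols are the probe set that represents the gene and the dashed line is the filter at 7.23. Red symbols lie above blue ones of the same shape for all 5 filled probe sets, and Ms4a3 and Ms4a6c are also higher in MP than in LSK.

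Ms4a3, the granulocyte and monocyte progenitor gene, was the member that differed most between the populations. Its single probe set, 1420572_at, had a log2 intensity of 10.37 in LSK and 11.94 in MP of WT mice, and 10.99 in LSK and 12.54 in MP of Smo-deficient mice. Both MP arrays lay above both LSK arrays, and within each population the Smo-deficient array was the higher one. LSK minus MP was -1.57 in WT cells and -1.56 in Smo-deficient cells, so that it was 2.96-fold and 2.94-fold lower in LSK. The genotype difference, Smo-deficient minus WT, was 0.62 in LSK and 0.61 in MP, or 1.53-fold and 1.52-fold. In bulk arrays such as these, fewer cells of a type and less RNA per cell cannot be told apart.

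Ms4a6c, like Ms4a3, was higher in MP than in LSK within each genotype, with a smaller step between populations. On 1450234_at its log2 intensity was 10.67 in LSK and 11.54 in MP of WT mice, and 11.54 in LSK and 12.45 in MP of Smo-deficient mice. The Smo-deficient LSK array and the WT MP array were level. LSK minus MP was -0.87 in WT cells and -0.91 in Smo-deficient cells, and Smo-deficient minus WT was 0.87 in LSK and 0.91 in MP. Its second probe set, 1457725_at, was below the filter, with log2 intensities of 6.82 in LSK and 7.04 in MP of WT mice, of 6.93 and 7.48 in these populations of Smo-deficient mice, and genotype differences of 0.10 in LSK and 0.44 in MP.

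Ms4a6b, the neighbour whose promoter is so like that of Ms4a6c, did not show the population step on its representing probe set. On 1418826_at its log2 intensity was 10.09 in LSK and 10.01 in MP of WT mice, and 10.79 in LSK and 10.97 in MP of Smo-deficient mice. The arrays parted by genotype, with both Smo-deficient arrays above both WT arrays. Smo-deficient minus WT was 0.70 in LSK and 0.96 in MP, while LSK minus MP was 0.08 in WT cells and -0.18 in Smo-deficient cells. The second probe set, 1439956_at, also past the filter by its mean, had genotype differences of 1.01 in LSK and 1.18 in MP. Its LSK minus MP was 0.42 in WT cells and 0.25 in Smo-deficient cells, so it was higher in LSK in both pools. Both its WT values (7.23 in LSK, just under the filter before rounding, and 6.81 in MP) lay below the filter.

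Ms4a4b parted by genotype as Ms4a6b did. On 1423467_at its log2 intensity was 7.22 in LSK and 7.03 in MP of WT mice, and 8.16 in LSK and 8.39 in MP of Smo-deficient mice. Both WT values lay below the filter and both Smo-deficient values above it, so the sizes of the differences depend on the background. Smo-deficient minus WT was 0.94 in LSK (1.92-fold) and 1.37 in MP (2.58-fold), the highest MP difference among the 9 probe sets. LSK minus MP was 0.19 in WT cells and -0.24 in Smo-deficient cells. The second probe set, 1425325_at, lay at the dim end of the array, at log2 intensities from 4.58 to 4.79, with genotype differences of -0.18 in LSK and -0.16 in MP, so it did not show the difference of the brighter one.

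Ms4a1, the CD20 gene, differed from the other members in where the genotype difference lay. On 1423226_at its log2 intensity was 7.49 in LSK and 7.28 in MP of WT mice, and 8.34 in LSK and 7.56 in MP of Smo-deficient mice. The Smo-deficient LSK array stood above the other 3, which lay within 0.28 of each other. Smo-deficient minus WT was 0.86 in LSK and 0.28 in MP, and LSK minus MP was 0.21 in WT cells and 0.78 in Smo-deficient cells. The dim second probe set, 1450912_at, at log2 intensities of 4.81, 5.84, 4.49 and 5.49 in WT LSK, Smo-deficient LSK, WT MP and Smo-deficient MP, had genotype differences of 1.03 in LSK and 1.0 in MP, so the smaller difference in MP rested on 1 of the 2 probe sets.

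Across the members, all 5 representing probe sets were higher in the Smo-deficient array in LSK, with differences from 0.62 to 0.94 and a median of 0.86, where the median over all 22518 probe sets past the filter was -0.02. In MP all 5 were higher too, from 0.28 to 1.37 with a median of 0.91, where the median over all probe sets was -0.05. Of all probe sets past the filter, 46.7% were higher in the Smo-deficient array in LSK and 40.3% in MP. No member was 2-fold higher in LSK (0.595% of all probe sets were) and Ms4a4b was in MP (0.28%). Which members reach 2-fold in MP depends on the scaling: after quantile normalization Ms4a6b (1.05) and Ms4a6c (1.04) did too, as they did after cyclic loess (1.08 and 1.03), so that 3 of 5 did, against 0.382% and 0.453% of all probe sets. With the median over a gene's probe sets it was Ms4a6b alone (1.07). At 1.5-fold, a threshold added after seeing the data, 5 of 5 were higher in LSK (3.06% of all probe sets) and 4 of 5 in MP (2.35%), and with that median 3 of 5 and 5 of 5. The members were chosen with these differences known, so nothing is read from these shares. LSK and MP cells of a genotype were sorted from the same marrow, and with 1 pool on each side the genotype and anything else that sets the pools apart cannot be told apart.

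Single differences were also set beside the spread, a scaled median absolute deviation of that difference among probe sets of similar brightness, which is not a replicate error. On the representing probe sets, the members lay in LSK from 2.93 spreads (Ms4a3) to 4.65 spreads (Ms4a4b) above 0. In MP they lay from 1.58 (Ms4a1) to 7.79 (Ms4a4b), so Ms4a1 was there the member within 2 spreads. Both WT values of Ms4a4b lay below the filter, so its place at the top depends on the background. The dim second probe set of Ms4a4b lay at -1.18 spreads in LSK and -1.07 in MP. That of Ms4a6c, also below the filter, lay at 0.56 in LSK and 2.55 in MP. The second probe sets of Ms4a1 and Ms4a6b lay more than 2 spreads above 0 in both populations. Over all probe sets past the filter, 9.47% lay beyond 2 spreads in either direction in LSK and 10.5% in MP.

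**Figure D2:**
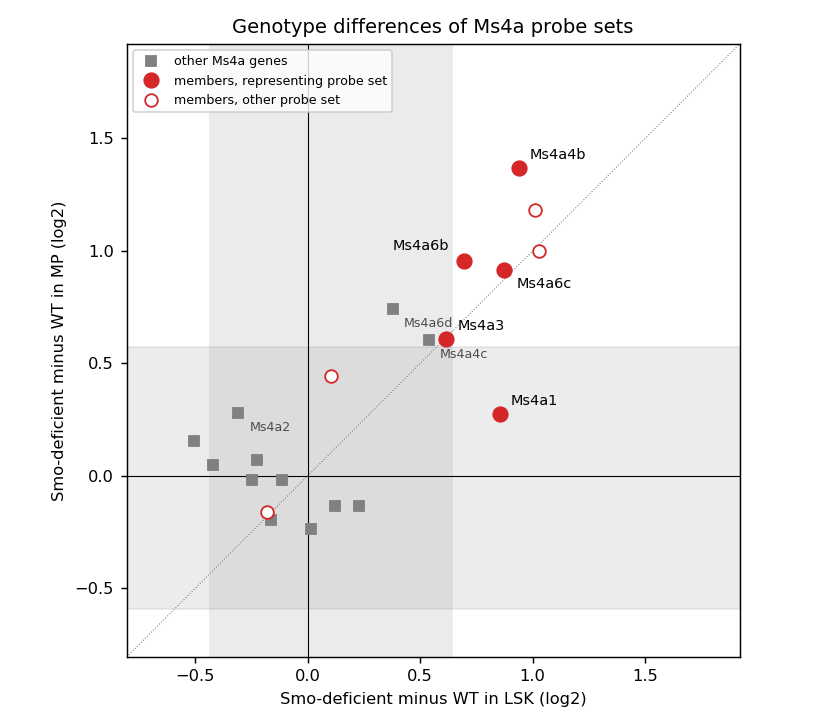
Smo-deficient minus WT (log2) in LSK on the horizontal and in MP on the vertical axis for the Ms4a probe sets, with red circles for members (filled for the representing probe set) and grey squares for other Ms4a genes; grey bands hold the central 95% of all probe sets past the filter and the dotted line marks equal differences. Ms4a4b lies highest at 0.94 and 1.37, Ms4a1 lies right of the line at 0.86 and 0.28, and Ms4a3 lies on it at 0.62 and 0.61.

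Between populations the members did not move as a group. In the WT pool 1 of 5, Ms4a3, was at least 2-fold lower in LSK (1.23% of all probe sets were) and 0 were 2-fold higher (2.94%). In the Smo-deficient pool these numbers were again 1 (0.83%) and 0 (3.69%), but after quantile normalization Ms4a6c was 2-fold lower too (-1.01), which makes 2 of 5 (1.1% of all probe sets). On the representing probe sets, Ms4a3 and Ms4a6c were lower in LSK in both pools and Ms4a1 was higher in LSK in both. Those of Ms4a4b and Ms4a6b had opposite signs in the pools within 1.01 spreads of 0. The second probe set of Ms4a6b was higher in LSK in both pools (0.42 in WT and 0.25 in Smo-deficient cells). These population differences use the same 4 arrays as the genotype differences and are not independent of them.

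**Figure D3:**
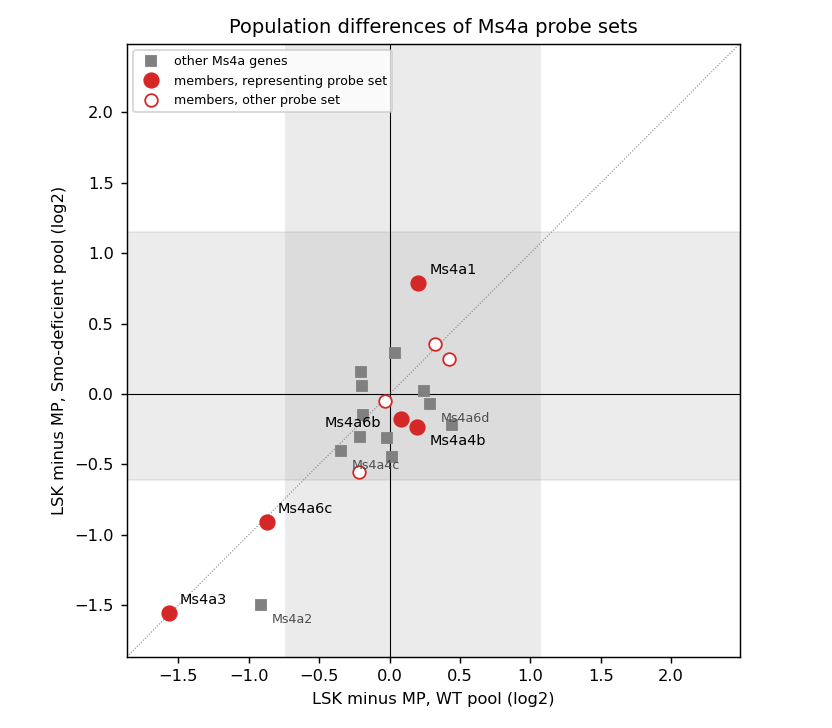
LSK minus MP (log2) in the WT pool on the horizontal and in the Smo-deficient pool on the vertical axis, with red circles for members (filled for the representing probe set), grey squares for other Ms4a genes, and grey bands for the central 95% of all probe sets past the filter. Ms4a3 at -1.57 and -1.56 and Ms4a6c at -0.87 and -0.91 lie close to the dotted line of equal differences, and Ms4a1 lies above it at 0.21 and 0.78.

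Profiles of the members were compared after each gene was centred on its own mean over the 4 arrays. Ms4a4b and Ms4a6b were the most alike pair, with a root mean square difference of 0.17 on the log2 scale, and Ms4a3 and Ms4a6c followed at 0.36. Ms4a1 and Ms4a3 were the least alike at 1.04. Ms4a6b and Ms4a6c, the pair with the most similar promoter windows, were at 0.42, so the order of likeness over these 4 arrays differed from that of the windows.

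The same measure named the genes most like each member among the 1207 or 1208 other genes past the filter with a range of at least 1 on the log2 scale. For Ms4a3 they were Papss2, an enzyme that makes the sulfate donor (0.10), Ifi202b of an interferon-inducible family (0.12) and Elane, neutrophil elastase (0.12). Ms4a6c was closest to Tmem156 and Abca9 (both 0.07) and to the autophagy gene Dram1 (0.07). Ms4a4b was closest to the transcriptional repressor Bcl6 (0.14), Parp8 (0.18) and the transcription factor Tfec (0.18). Ms4a6b was closest to Parp8 (0.10), Tfec (0.11) and the prolyl hydroxylase gene Egln3 (0.13). Ms4a6b itself, with a range of 0.96, was not among the genes searched. At 0.169 it lay nearer to Ms4a4b than Parp8 did (0.177). For Ms4a1 they were the adhesion receptor gene Adgre4, the sialyltransferase gene St6gal1 and Pcmtd2, each at 0.07. These distances rest on 4 arrays and describe them only.

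The other genes of the run put the members in place. RefSeq lists 21 Ms4a genes on chromosome 19 in a run of 22 protein-coding genes, of which the other is Gm8369, and 17 of the 21 were measured. The 7 measured genes at one end, from Ms4a10 to Ms4a13, had genotype differences from -0.50 to 0.23 in LSK and from -0.20 to 0.16 in MP, and 6 of these 7 were below the filter. Among the genes mixed with the members, Ms4a4c was higher in the Smo-deficient arrays on both of its probe sets, by 0.54 in LSK and 0.60 in MP on 1420671_x_at and by 1.24 and 1.52 on 1450291_s_at. By Affymetrix naming, probes of such _x_at and _s_at sets can bind more than 1 transcript, so signal of Ms4a4c and its near copies may be shared. Ms4a6d, below the filter on 1419599_s_at, differed by 0.38 in LSK and 0.74 in MP. Its dimmer probe sets differed by 0.20 and 0.77 (1419598_at) and by 0.14 and 0.05 (1449539_at).

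Not all genes in that stretch followed. Ms4a7, known from macrophages, had differences of 0.01 in LSK and -0.24 in MP at a mean log2 intensity of 7.76. Ms4a2, the beta chain of the IgE receptor on mast cells, lies next to Ms4a3 and differed by -0.31 in LSK and 0.28 in MP on 1443264_at. Its second probe set, 1421475_at, below the filter, differed by -0.05 and -0.06, so the opposite signs rested on 1 of the 2 probe sets. Ms4a4d, at the dim end of the array, differed by -0.22 and 0.07.

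The 20 nearest measured protein-coding genes around the run, 10 on each side, had genotype differences with a median of -0.03 in LSK and of 0.05 in MP. At the far end of these was Mpeg1, a pore-forming protein gene of macrophages, with 1.16 in LSK and 0.95 in MP, the highest of the 20 in both populations. On the other side Slc15a3, a lysosomal peptide transporter gene below the filter, differed by 0.65 and 0.26. The other 18 lay between -0.28 and 0.50 in LSK, and between -0.49 and 0.37 in MP.

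**Figure D4:**
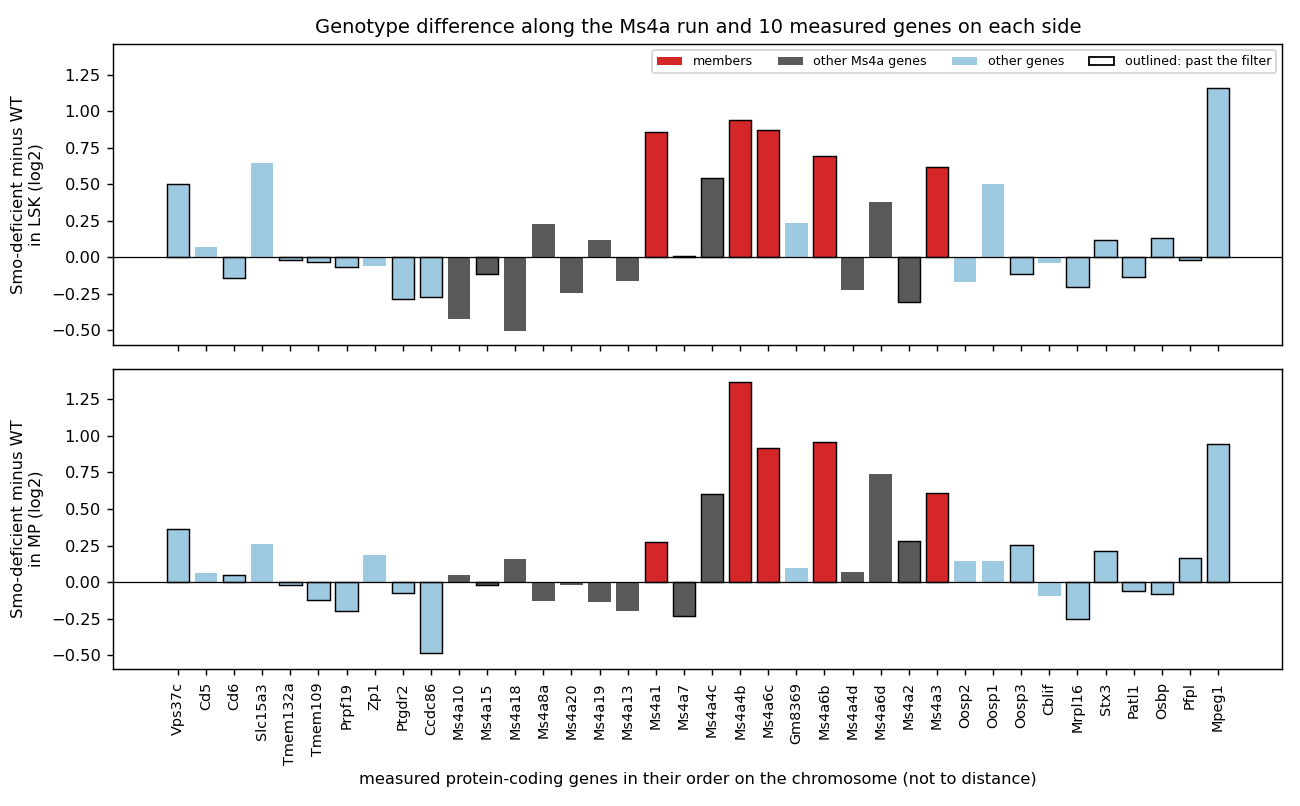
Smo-deficient minus WT (log2, vertical axes) in LSK (top) and MP (bottom) for the measured protein-coding genes of the Ms4a run and 10 on each side, in chromosome order and not to distance; members are red, other Ms4a genes dark grey, other genes blue, and outlined bars are past the filter. The tall red bars are broken by low ones such as Ms4a7 at 0.01 in LSK and Ms4a2 at -0.31, and Mpeg1 at the right end reaches 1.16.

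Each member was then set beside genes of the lineage it is known for, from lists that were chosen with earlier results of these arrays known. Medians are over the measured genes of a list other than the members, and the median over all 18193 named genes was -0.03 in both genotype comparisons. The counts of higher genes below stand beside 46.7% of all probe sets past the filter in LSK and 40.3% in MP. These are unlike sets, since the list counts take the representing probe set of each measured gene, dim ones included. The lists also overlap: Nkg7, Csf1r, Flt3, Il7r and Ccr9 are counted in more than 1 list. Of the 15 measured granulocyte and monocyte progenitor genes set beside Ms4a3, all 15 were higher in the Smo-deficient array in LSK (median 0.64) and in MP (median 0.71). In LSK the largest differences were those of Ly86 (1.35), Fcgr3 (1.27), Irf8 (1.26) and the monocyte growth factor receptor gene Csf1r (1.21), and the values of Elane were 0.87 in LSK and 0.77 in MP. The summed intensity of the list was 58034 in LSK and 94574.5 in MP of WT mice, and 82941 in LSK and 137228 in MP of Smo-deficient mice, which is the order of the arrays for Ms4a3. Bright genes weigh most in this sum, and Mpo alone gave 23860 of it in WT LSK and 31658 in WT MP.

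In the comparison of LSK with MP, the list could be tested with limma over all 22518 probe sets, with the pool as a block. Of the 15 genes 10 fell in LSK and 1, the receptor gene Csf3r, rose at a Benjamini-Hochberg adjusted p under 0.05, where 7.19% of all probe sets fell and 15.1% rose. Elane fell by 1.64 ± 0.08 (SE) on the log2 scale with a limma adjusted p of 0.000141, and Ly86 by 1.66 ± 0.12 with 0.000397, lower in LSK in both pools. Without the pool as a block 0 of the 15 passed (limma), where 140 of all 22518 probe sets fell and 918 rose. The limma adjusted p of Elane was then 0.062. At an unadjusted p under 0.05 (limma without the block), 5 of the 15 fell and 1 rose. No share of all probe sets is given for the unadjusted p, here or below. With 2 pools the fit has 1 residual degree of freedom before limma's moderation, so the p-values measure how far the pools differ in LSK minus MP, not the spread between mice.

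Monocyte genes, set beside Ms4a6b and Ms4a6c, were higher in the Smo-deficient array for 12 of 15 measured genes in LSK (median 0.65) and 13 of 15 in MP (median 0.51). The galectin gene Lgals3 (1.15) and the coagulation factor gene F13a1 (1.02) led in LSK, and F13a1 (0.81) and the cathepsin gene Ctss (0.68) in MP, while the chemokine receptor gene Ccr2 differed by -0.43 in LSK and -0.15 in MP. Summed intensity was 31463 in LSK and 33208 in MP of WT mice, and 46391 in LSK and 47006 in MP of Smo-deficient mice. Of 14 tested, 5 fell and 2 rose in LSK against MP (limma, pool as a block), against 0 and 1 without the block (3 and 2 at an unadjusted p under 0.05). Of all probe sets 7.19% fell and 15.1% rose with the block, and 140 and 918 of 22518 did without it.

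B cell genes, set beside Ms4a1, were higher for 15 of 17 measured genes in LSK with a median of 0.56, and for 13 of 17 in MP with a median of 0.19. Among those past the filter, in LSK the Fc receptor-like gene Fcrla (1.84) and the coactivator gene Pou2af1 (1.81) led, followed by Spib (1.28) and the adaptor gene Blnk (1.18), and in MP these differed by 0.39, 0.78, 0.58 and 0.01. Of genes that define the lineage, Cd79a had log2 intensities of 7.34 in LSK and 7.56 in MP of WT mice, and 7.94 in LSK and 7.91 in MP of Smo-deficient mice, and the genotype differences of the B lineage factor gene Pax5 were 0.07 in LSK and -0.27 in MP. The lineage factor gene Ebf1, below the filter, had values of 1.51 in LSK and 0.62 in MP, and these factor genes were picked out after their values were seen. The list sum, most of it from Cd24a, which is not limited to B cells, was 16281 in LSK and 21271 in MP of WT mice, and 22936.5 in LSK and 19808 in MP of Smo-deficient mice. In LSK against MP, 2 of 14 tested B cell genes rose and 0 fell (limma, pool as a block, and also 0 fell at an unadjusted p under 0.05). Of all probe sets 15.1% rose and 7.19% fell, so nothing is read from this count. Without the block 1 rose, where 918 of all 22518 probe sets rose and 140 fell.

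T and NK cell genes, set beside Ms4a4b, did not share its difference in number. This list shares Nkg7 (0.09 in LSK and 0.45 in MP) with the list set beside Ms4a3. In LSK 10 of 16 measured genes were higher with a median of 0.04, and in MP 9 of 16 with a median of 0.01. Of these 16, 8 were past the filter, so the medians rest in part on dim probe sets. Cd3e, a chain of the T cell receptor complex, lay between 8.05 and 8.14 on all 4 arrays, with differences of -0.03 in LSK and 0.01 in MP. The exception in LSK was Il7r, the receptor gene of early lymphoid cells, at 1.21, with 0.63 in MP. Summed intensity was 7556 in LSK and 6455 in MP of WT mice, and 8097 in LSK and 7940 in MP of Smo-deficient mice. Of 8 tested 1 rose and 1 fell in LSK against MP (limma), with the block and without it. Over all probe sets 15.1% rose and 7.19% fell with the block, and 918 and 140 of 22518 did without it.

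**Figure D5:**
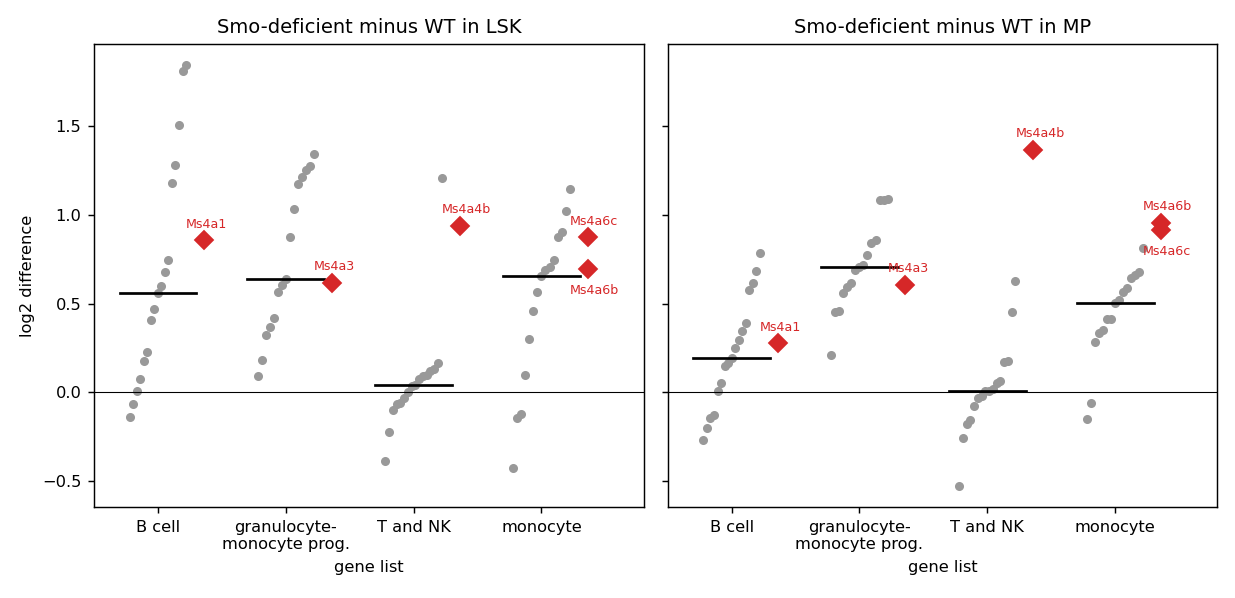
Smo-deficient minus WT (log2, vertical axis) in LSK (left) and MP (right) for the measured genes of 4 lists (grey points, black bar for the median) with the members set beside each list as red diamonds. Ms4a3 lies near the median of its list in LSK (0.62 against 0.64), and Ms4a4b at 1.37 in MP lies above all 16 T and NK cell genes.

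Markers of other cell types also differed between genotypes. Both populations were sorted as Lin- ckit+, a gate meant to leave out mature cells such as neutrophils, macrophages and erythroid cells. Neutrophil genes were higher for 10 of 11 in Smo-deficient LSK (median 0.76, summed intensity 94458 in WT and 152388 in Smo-deficient) and for 11 of 11 in MP (median 0.19, 114571 and 130655). Macrophage genes were higher for 12 of 15 in LSK (median 0.60) and 7 of 15 in MP (median -0.02, but 0.01 after cyclic loess normalization), with C1qb at 0.78 and 0.23. Summed macrophage intensity was 5698 in LSK and 11393 in MP of WT mice, and 9483 in LSK and 14171 in MP of Smo-deficient mice. Dendritic cell genes were higher for 9 of 13 in LSK (median 0.21) and 6 of 13 in MP (median -0.04), mature erythroid genes for 5 of 5 (0.53) and 4 of 5 (0.13), and lymphoid priming genes for 12 of 14 in both (medians 1.01 and 0.47). The part of these cells in the differences of the members was not tested.

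Mast cell and basophil genes, the lineage of Ms4a2, were higher in the Smo-deficient array for 5 of 9 in LSK (median 0.05) and 6 of 9 in MP (median 0.34). The defining marker Fcer1a, below the filter, had genotype differences of -0.80 in LSK and -0.24 in MP. Its LSK minus MP was 0.66 in WT and 0.10 in Smo-deficient cells, opposite in sign to that of Ms4a2. Ms4a2 was the only other Ms4a gene of 4 tested to pass in LSK against MP (limma, pool as a block): it fell in LSK by 1.21 ± 0.16 (SE) on the log2 scale with an adjusted p of 0.00346, and lay lower in LSK in both pools, at -0.91 in WT and -1.5 in Smo-deficient. It kept its call without the block, with an adjusted p of 0.0259 by limma. Of the 6 mast cell and basophil genes tested, 3 fell and 1 rose (limma, pool as a block), where 7.19% of all probe sets fell and 15.1% rose. Without the block 0 did (limma, with 2 lower and 1 higher at an unadjusted p under 0.05). There 140 of all 22518 probe sets fell and 918 rose. Ms4a4c missed the threshold at an adjusted p of 0.0538 (limma) with a difference of -0.38 ± 0.11 (SE), as did Ms4a7 (adjusted p 0.361) and Ms4a15 (0.154).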

How the data were processed

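Values were intensities that the authors deposited as 1 table for the 4 arrays, made with RMA per the submitters' processing notes; its version and the genome build are not given in the sources used here. Of the values, the lowest was 12.3 and the highest 44290.5, a linear scale, and log2 was taken with no offset. RMA pulls arrays towards a common distribution, which can take out a change that most genes share. The array medians lay between 7.22 and 7.23 on the log2 scale. The distributions were not identical, since a further quantile normalization moved the probe sets called lower in LSK by limma from 1618 to 2562. The 64 control probe sets were set aside. Of the 45037 others, 34945 had 1 gene in the platform annotation, 932 several and 9160 none; all 9 member probe sets matched a RefSeq gene by Entrez identifier. Probe sets with a mean above the 50th percentile (22518) entered counts and tests.

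LSK was tested against MP with limma 3.58.1 in R 4.3.3 (lmFit, eBayes with trend, two-sided, the pool, and so the genotype, as block), checked on simulated data. The spread used 20 bins of mean level. Named were all members, all measured Ms4a genes, the 3 genes most like each member, and up to 4 genes with the largest differences and the defining markers of each list. Alternatives were quantile and cyclic loess normalization, an offset of 50, other filters, no block, no trend, and the median over a gene's probe sets. Members and lists were chosen with earlier results of these data known. RefSeq names and promoters are of GRCm38.p6, and Biopython 1.88 aligned the windows. Protein sequences were not used here.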

Additional observations from a re-analysis of the deposited data

Results flagged for a closer look

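For 2 members the difference between LSK and MP had opposite signs in the pools, which was not tested, since each pool has 1 array per population. LSK minus MP of Ms4a4b on 1423467_at was 0.193 in WT cells and -0.236 in Smo-deficient cells. For Ms4a6b on 1418826_at the values were 0.079 (WT pool) and -0.18 (Smo-deficient pool). All 4 values lay within 1.01 spreads of 0, and the second probe set of Ms4a6b was positive in both pools (0.42 and 0.25). The dim second probe set of Ms4a4b was negative in both (-0.03 in WT and -0.05 in Smo-deficient cells). With the median over a gene's probe sets, Ms4a6b was positive in both pools (0.25 and 0.03). Ms4a4b kept its opposite signs under that median (0.08 and -0.14).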

How the results depend on the processing

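The representing probe sets of the 5 members kept the sign of all 20 differences under quantile normalization, cyclic loess and an offset of 50. Under these alternatives the genotype medians of the lists also kept their sign, except that of macrophage genes in MP (0.01 after cyclic loess). With the offset the MP genotype difference of Ms4a4b was 1.10. With the median over a gene's probe sets, that of Ms4a4b was 0.38 in LSK and 0.60 in MP, that of Ms4a6c 0.49 and 0.68, that of Ms4a1 in MP 0.64, and LSK minus MP of Ms4a6c in the WT pool -0.54, because the dimmer probe sets differ from the brighter ones. Under this median Ms4a4b was no longer 2-fold in MP and Ms4a6b was. Members 2-fold higher in MP numbered 1 as reported, 3 after quantile normalization or cyclic loess and 1 with the offset, and those 2-fold lower in LSK of the Smo-deficient pool 1, but 2 after quantile normalization. Probe sets 2-fold higher in Smo-deficient LSK numbered 134, and 221 with no filter. In MP they numbered 63, 102 after cyclic loess and 34 with the offset, and the cause was not tested. With limma, 3395 probe sets rose and 1618 fell in LSK, 67.7% of calls higher. Without the replicate block, which here is the pool, 918 rose and 140 fell, and after quantile normalization 2984 rose and 2562 fell (53.8% higher). No paired analysis was possible because the groups share 1 replicate number, except by the pool that both populations of a genotype came from. No array could be left out, with 1 per group.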

Other observations

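Tmem176a and Tmem176b, relatives of the Ms4a family outside the run, had the opposite population difference to Ms4a3. Tmem176b rose in LSK by 1.28 ± 0.11 (SE) on the log2 scale with a limma adjusted p of 0.000705 (pool as a block), and was higher in LSK in both pools, by 1.5 in WT and 1.05 in Smo-deficient. Tmem176a rose by 1.35 ± 0.13 with a limma adjusted p of 0.00115, by 1.58 and 1.12 in these pools, and both kept their calls without the block (limma adjusted p of 0.0352 and 0.0442). Both were also higher in the Smo-deficient arrays, Tmem176a by 0.24 in LSK and 0.69 in MP and Tmem176b by 0.19 and 0.64, a step that was larger in MP, though this was not tested.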
